A study of Mus musculus with 39 samples.

Results

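The matrix metalloproteinases (MMPs), the ADAMTS proteases and the tissue inhibitors of metalloproteinases (TIMPs) were followed in RNA-seq libraries of the mouse sciatic nerve after crush. Members were all protein-coding genes whose mouse symbol was Mmp with a number (and, where present, a or b), Adamts with a number, or Timp1 to Timp4. The rule gave 45 of the 55573 genes in each count table, of which 22 were MMPs, 19 ADAMTS and 4 TIMPs. A minimum of expression kept 38 of the 45 (16 MMPs, 18 ADAMTS, 4 TIMPs) among 18442 genes tested. A member that passed only through the nerves where it was high had to differ between nerves, so counts over these 38 are given as descriptions. The other 7 members reached no more than 17 reads for Adamts13, 16 for Mmp24, 7 for Mmp7, 5 for Mmp10, 2 for Mmp20, 2 for Mmp21 and 0 for Mmp1b in any library.

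The study asks how leptin receptor (Lepr) signaling in Schwann cells shapes nerve regeneration. Every mouse carried the floxed Lepr fl/fl allele on a C57BL/6 background, was a young adult and was of either sex. In Lepr-cKO mice, Dhh-Cre, which is active in the Schwann cell lineage from the embryo on, removed exon 1 of Lepr. Lepr-ctrl mice were Lepr fl/fl mice without Cre. The endoneurium of the distal sciatic nerve was taken 2 or 4 weeks post-crush (wpc), from the crushed side (injured) and from the uncrushed side of the body (healthy). At 2 wpc there were 5 healthy and 5 injured Lepr-ctrl libraries and 6 healthy and 5 injured Lepr-cKO libraries. At 4 wpc there were 5 healthy and 4 injured libraries of each genotype. The 39 libraries came from 22 animals, 17 of which gave both nerves. The healthy nerve is the other side of the same mice, not a nerve of an unoperated mouse.

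MMPs are zinc-dependent endopeptidases, made as inactive precursors, that cut collagens, laminins, proteoglycans and cell surface proteins, and a membrane-type subgroup acts at the cell surface. ADAMTS enzymes are secreted relatives with thrombospondin repeats, and their main substrates are proteoglycans such as versican and aggrecan, procollagens and microfibril proteins. TIMPs bind the active site of these enzymes and block it, and TIMP3 stands out among them for being held in the matrix and for inhibiting several ADAMTS enzymes. In crushed peripheral nerve these enzymes are known for matrix and myelin clearance, opening of the blood-nerve barrier and macrophage entry.

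Libraries held 10905806 to 45016322 counted reads (median 27752451). All levels below are CPM, read counts scaled to a common library size with TMM factors. Libraries are named as in the sample titles, with c closing the name of a healthy and i that of an injured nerve. The summed level of 8 macrophage markers was 104 to 354 CPM in healthy and 891 to 4190 CPM in injured nerves. That of 7 myelin markers was 84230 to 117600 CPM in healthy and 9969 to 76670 CPM in injured ones, so the sides differed widely in these marker transcripts. In bulk tissue, fewer cells of a type and less RNA per cell cannot be told apart. The 8 neutrophil markers, of which 3 passed the filter, summed to 0.181 to 1.37 CPM in healthy and 0.985 to 5.22 CPM in injured nerves, and the medians of Ly6g, Mpo, Elane and Ngp were 0. Injured libraries that stood apart were Lepr-cKO library SLRKO2wpc126i at 2 wpc (skeletal muscle markers at 38040 CPM, at most 30.4 CPM elsewhere), Lepr-ctrl library SLRKO2wpc144i at 2 wpc (33.0% of reads from mitochondrial genes, myelin markers at 9969 CPM) and Lepr-cKO library KO-169Sni at 4 wpc (2.95% mitochondrial, myelin markers at 76670 CPM, repair Schwann cell markers at 1318 CPM). Mitochondrial reads were 1.92 to 4.25% in healthy nerves and 5.56 to 33.0% in the injured nerves other than KO-169Sni. Library KO-169Sni, female by its 13547 Xist reads, also held 72 reads of the Y-linked Ddx3y, against at most 11 in the other female libraries. Lepr counted over the whole gene checks the deletion little, since a transcript without exon 1 is still counted. The study itself reported less Lepr mRNA by qPCR in injured Lepr-cKO endoneuria at 2 wpc, and no shift of the receptor to the membrane in Lepr-cKO Schwann cells. In these libraries the mean of Lepr was 6.63 to 10.2 CPM in the healthy groups and 30.6 to 69.7 CPM in the injured groups. At 2 wpc the injured means were 53.3 CPM in Lepr-ctrl and 69.7 CPM in Lepr-cKO nerves, not lower in Lepr-cKO. No genotype comparison of Lepr passed the test (adjusted p = 0.362 to 1, edgeR).

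In healthy nerve, inhibitors and a few proteases made up most of the members' signal. Per kb of exon, the scale on which genes can be compared, Timp2 led in healthy Lepr-ctrl nerves at 2 wpc with 255 ± 12.5 CPM per kb (SD, n = 5). It was followed by Timp3 at 146.8 ± 13.6, Mmp15 at 108 ± 13.2, Mmp2 at 68.2 ± 19.2 and Adamts5 at 19.6 ± 2.71 CPM per kb. In injured Lepr-ctrl nerves at 2 wpc the order was Timp2 at 119.7 ± 46.4, Mmp2 at 55.3 ± 23.2, Timp1 at 52.8 ± 8.90, Mmp15 at 48.0 ± 16.8 and Mmp14 at 20.9 ± 5.29 CPM per kb. Mmp2, Timp1 and Mmp15 lay within their spread of each other there. Timp1 had entered the leading 5 and Timp3, at 17.2 ± 12.1 CPM per kb, had left it.

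Of the members tested, more rose than fell after crush. The filter favored rises, since a member scarce in healthy nerve could pass it through injured nerves. Mmp3, Mmp8, Mmp13, Mmp25, Mmp27, Adamts16 and Adamts18 had medians of 0 to 0.1805 CPM over the healthy libraries. The counts and medians that follow are therefore descriptions and give no result about the family. A member was called where the adjusted p of edgeR's quasi-likelihood test was under 0.05 and the log2 fold change exceeded 1 in size. In Lepr-ctrl nerves at 2 wpc, 16 of 38 members rose and 4 fell, against 19.8% and 14.3% of all genes tested. In Lepr-cKO nerves at 2 wpc, 21 rose and 5 fell, against 20.9% and 13.4% of all genes. At 4 wpc, 11 rose and 8 fell in Lepr-ctrl nerves (20.1% and 15.9% of all genes), and 13 rose and 4 fell in Lepr-cKO nerves (16.8% and 10.8%). The members' median log2 fold change was 0.86, 1.26, 0.22 and 0.63 in these 4 comparisons, where the median of all genes was 0.08, 0.10, 0.02 and 0.06.

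The direction of a member, once called, was the same throughout. Called higher in all 4 injury comparisons were 10 members, namely Timp1, Mmp3, Mmp8, Mmp12, Mmp16, Mmp25, Mmp27, Adamts10, Adamts14 and Adamts18. Called lower in all 4 were Adamts5 and Timp3. A further 18 were called in 1 to 3 of the comparisons, 8 were called in none, and no member was called in both directions. The share of all genes called in all 4 comparisons is not given here, so these counts only describe the members. The 18 injured and 21 healthy libraries did not overlap for 10 of the 38 members, 7 higher (Timp1, Mmp8, Mmp12, Mmp14, Mmp27, Adamts10, Adamts14) and 3 lower after crush (Timp3, Mmp28, Adamts5). That was the case for 18.7% of all genes tested.

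**Figure D1:**
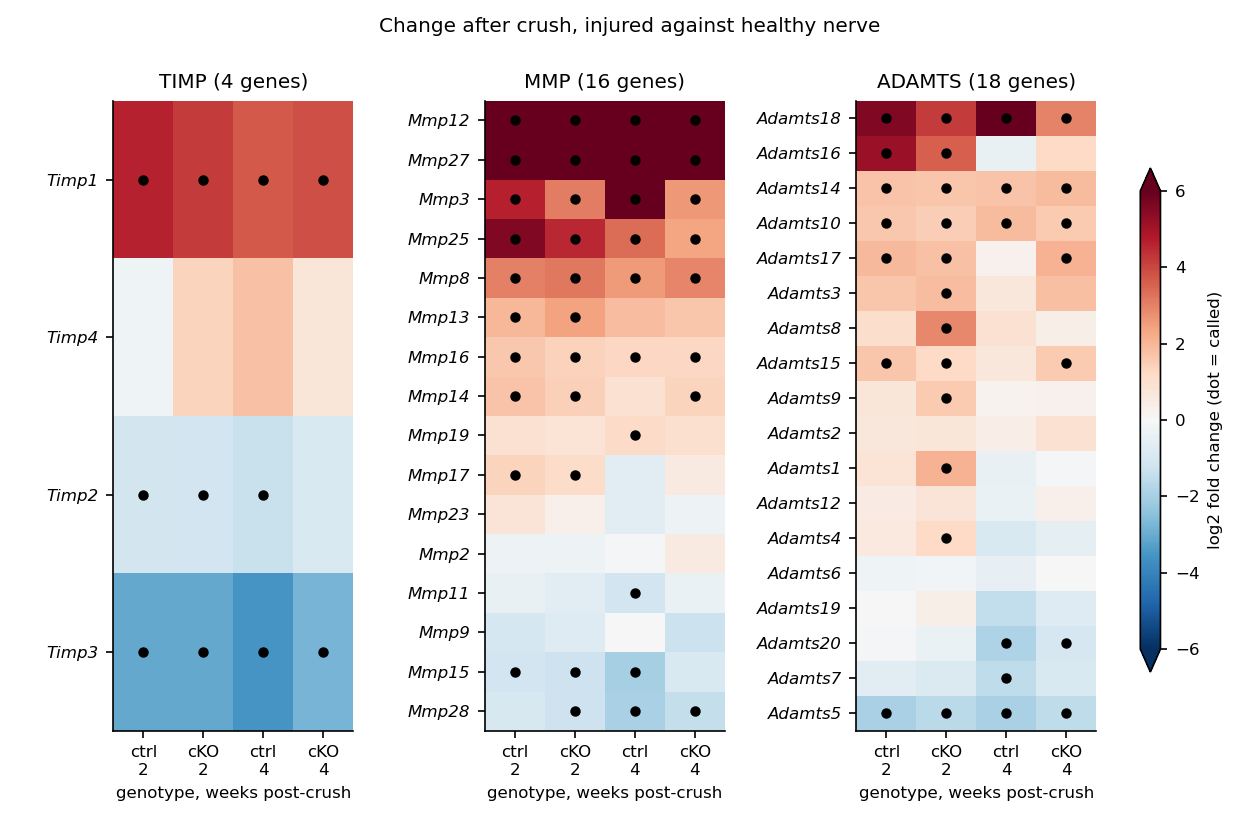
Log2 fold change of the 38 tested members, injured against healthy nerve, in columns for Lepr-ctrl and Lepr-cKO at 2 and 4 wpc, with 1 panel each for MMPs, ADAMTS and TIMPs. Red is higher and blue lower after crush, and the color scale ends at 6 in either direction, so Mmp12 (mean 6.99 over the 4 comparisons) and Mmp27 (mean 6.92) sit at its end. Timp1 (mean 4.08) is red and Timp3 (mean -3.12) blue in every column.

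The 4 TIMPs parted after crush. Timp1, the inducible inhibitor (chromosome X: 20870166 to 20874735, GRCm38), rose, while Timp3, the matrix-bound inhibitor, and Timp2, which also takes part in MMP2 activation, fell. At 2 wpc, Timp1 was at 1.55, 1.60, 1.89, 2.17 and 2.43 CPM in healthy Lepr-ctrl nerves and at 35.9, 45.0, 47.2, 48.3 and 58.0 CPM in injured ones. In Lepr-cKO nerves, Timp1 was at 1.20 to 5.002 (median 2.78, n = 6) CPM when healthy and at 44.5, 49.0, 50.3, 52.3 and 53.2 CPM when injured. All injured values exceeded all healthy ones. Timp1 stood at 0.917, 0.985, 2.10, 2.33 and 2.85 CPM in healthy and 17.2, 21.8, 27.2 and 29.7 CPM in injured Lepr-ctrl nerves at 4 wpc. Timp1 in Lepr-cKO nerves was 1.13, 1.37, 1.76, 2.16 and 2.202 CPM on the healthy and 18.5, 19.5, 24.2 and 37.2 CPM on the injured side. Here too the sides did not overlap, and the injured levels of both genotypes were below those of 2 wpc except in Lepr-cKO library KO-169Sni (37.2 CPM), which exceeded 1 Lepr-ctrl library of 2 wpc. The log2 fold changes of Timp1 were 4.60, 4.19, 3.69 and 3.85 in Lepr-ctrl and Lepr-cKO at 2 wpc and Lepr-ctrl and Lepr-cKO at 4 wpc, the order kept below (standard errors 0.27 to 0.31, adjusted p 5.75e-15 to 3.00e-12).

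Timp3 went the other way from a far higher base. Timp3 stood at 1009, 1180, 1252, 1269 and 1270 CPM in healthy and 37.2, 70.0, 106, 223 and 265 CPM in injured Lepr-ctrl nerves at 2 wpc. Timp3 in Lepr-cKO nerves was 1057 to 1215 (median 1142, n = 6) CPM on the healthy and 83.0, 84.5, 87.4, 205 and 207 CPM on the injured side. The highest injured value was well below the lowest healthy value. Timp3 in healthy Lepr-ctrl nerves at 4 wpc was at 1068, 1335, 1340, 1354 and 1365 CPM, and in injured ones at 101, 112, 114 and 124 CPM. For Timp3 in Lepr-cKO mice, the healthy nerves gave 717, 1143, 1181, 1360 and 1376 CPM and the injured nerves 78.1 to 269 (median 159, n = 4) CPM. No injured library reached a healthy one. Its log2 fold changes were -3.09, -3.09, -3.52 and -2.80 (standard errors 0.35 to 0.40, adjusted p 2.34e-09 to 2.32e-07). Exons of Syn3, the synapsin gene that holds Timp3 in an intron, overlap 21.3% of the exon bases of Timp3, and whether reads were assigned by strand is not stated.

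Timp2 had the highest level per kb of all members. Timp2 in healthy Lepr-ctrl nerves at 2 wpc was at 932, 949.9, 1019, 1024 and 1039 CPM, and in injured ones at 240, 376, 413, 649 and 654 CPM. For Timp2 in Lepr-cKO mice, the healthy nerves gave 944 to 1038 (median 1003, n = 6) CPM and the injured nerves 374, 381, 413, 468 and 629 CPM. The sides were separate in both genotypes. At 4 wpc, Timp2 was at 1094, 1111, 1127, 1162 and 1356 CPM in healthy Lepr-ctrl nerves and at 377, 392, 521 and 561 CPM in injured ones. In Lepr-cKO nerves, Timp2 was at 1032, 1130, 1139, 1157 and 1270 CPM when healthy and at 366, 483, 549.9 and 1050 CPM when injured. Injured Lepr-cKO library KO-169Sni, at 1050 CPM, was the only one within the healthy range. Log2 fold changes were -1.09, -1.14, -1.34 and -0.90 (standard errors 0.20 to 0.23), called lower in all but Lepr-cKO at 4 wpc, where the size fell short of 1 (adjusted p = 9.49e-04). With the animal as a block the values nearest to 1 crossed it, to -0.96 (adjusted p = 3.04e-04) in Lepr-ctrl at 2 wpc and -1.01 (adjusted p = 2.34e-04) in Lepr-cKO at 4 wpc. Without Lepr-ctrl library SLRKO2wpc144i the value at 2 wpc was -0.92 (adjusted p = 1.55e-04), and without Lepr-cKO library KO-169Sni that at 4 wpc was -1.30 and called (adjusted p = 4.84e-06).

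Timp4, known best from heart and adipose tissue, was scarce. At 2 wpc, Timp4 was at 0.177, 0.356, 0.516, 0.589 and 0.682 CPM in healthy Lepr-ctrl nerves and at 0.110, 0.191, 0.427, 0.451 and 0.751 CPM in injured ones. In Lepr-cKO nerves, Timp4 was at 0.257 to 1.42 (median 0.634, n = 6) CPM when healthy and at 0.288, 0.331, 0.359, 2.44 and 6.42 CPM when injured. The sides overlapped in both genotypes. Timp4 stood at 0.134, 0.260, 0.265, 0.292 and 0.388 CPM in healthy and 0, 0.557, 1.22 and 1.85 CPM in injured Lepr-ctrl nerves at 4 wpc. Timp4 in Lepr-cKO nerves was 0.156, 0.330, 1.13, 1.17 and 1.49 CPM on the healthy and 0.164, 0.588, 2.44 and 2.61 CPM on the injured side. Timp4 was called in none of the comparisons, with log2 fold changes of -0.27, 1.32, 1.75 and 0.73 (standard errors 0.68 to 0.87). The second rested on library SLRKO2wpc126i, without which it was 0.14 (adjusted p = 0.867). It was 1.58 to 1.63 and called without any one of libraries SLRKO2wpc125i, SLRKO2wpc128i and SLRKO2wpc135i (adjusted p 0.0352 to 0.0432). The third was 2.12 and called without WT-178Sni (adjusted p = 0.0363). Adipocyte markers summed to 1343 CPM in Lepr-cKO library SLRKO2wpc126i, which had the highest Timp4 (6.42 CPM), and their part in it was not tested.

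**Figure D2:**
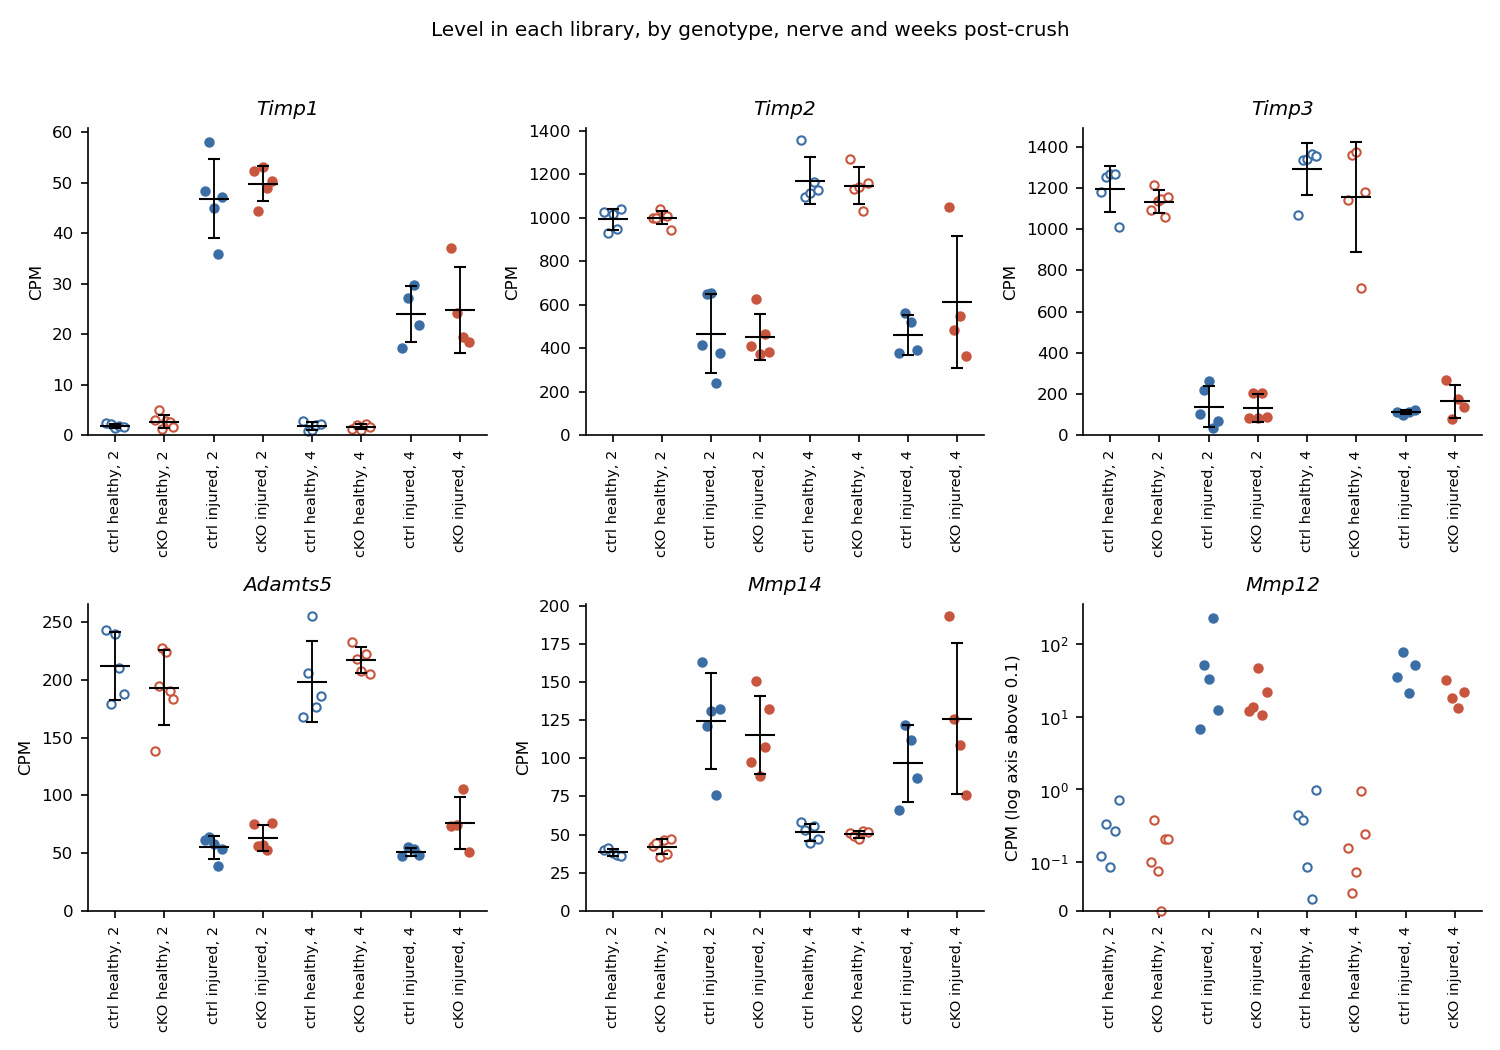
CPM of 6 members in each of the 39 libraries, by genotype, nerve and weeks post-crush, with the mean and SD for all but Mmp12, whose axis is logarithmic above 0.1. Open points are healthy and filled points injured nerves, blue is Lepr-ctrl and red Lepr-cKO. Timp1, Mmp14 and Mmp12 are higher and Timp3 and Adamts5 lower in every injured library than in any healthy one, while 1 injured library of Timp2 (1050 CPM) lies among the healthy values.

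Summed per family, TIMP and MMP means were lower after crush. The MMP sums of the sides were apart in Lepr-cKO at 2 wpc and Lepr-ctrl at 4 wpc only. In Lepr-cKO at 4 wpc they were 234 ± 33.5 CPM per kb when healthy and 203 ± 98.7 when injured. ADAMTS means were higher at 2 wpc and lower at 4 wpc, with overlap in every comparison. In Lepr-cKO nerves they went from 54.5 ± 3.78 to 83.4 ± 42.7 at 2 wpc (highest library 158.9). At 4 wpc they went from 53.7 ± 3.47 to 51.4 ± 8.18. The 4 TIMPs summed to 404 ± 11.01 CPM per kb in healthy and 190 ± 64.8 in injured Lepr-ctrl nerves at 2 wpc (SD, n = 5 each), and to 399 ± 9.93 (n = 6) and 189 ± 30.8 (n = 5) in Lepr-cKO nerves. The sums at 4 wpc were 461 ± 14.6 (n = 5) and 160 ± 28.6 (n = 4) in Lepr-ctrl and 438 ± 46.8 (n = 5) and 206 ± 94.9 (n = 4) in Lepr-cKO nerves. The ratio of summed TIMPs to summed MMPs and ADAMTS was 1.53 ± 0.178 and 1.51 ± 0.101 in healthy Lepr-ctrl and Lepr-cKO nerves at 2 wpc and 0.770 ± 0.1801 and 0.784 ± 0.113 in the injured ones. At 4 wpc it was 1.53 ± 0.117 and 1.52 ± 0.0965 in healthy and 0.860 ± 0.0266 and 0.799 ± 0.0438 in injured nerves. Ratios in injured libraries ran up to 1.01 and those in healthy libraries from 1.29, so the sides did not overlap. These are sums of transcript levels, given as a description with no test, and carry no measure of enzyme or inhibitor activity.

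**Figure D3:**
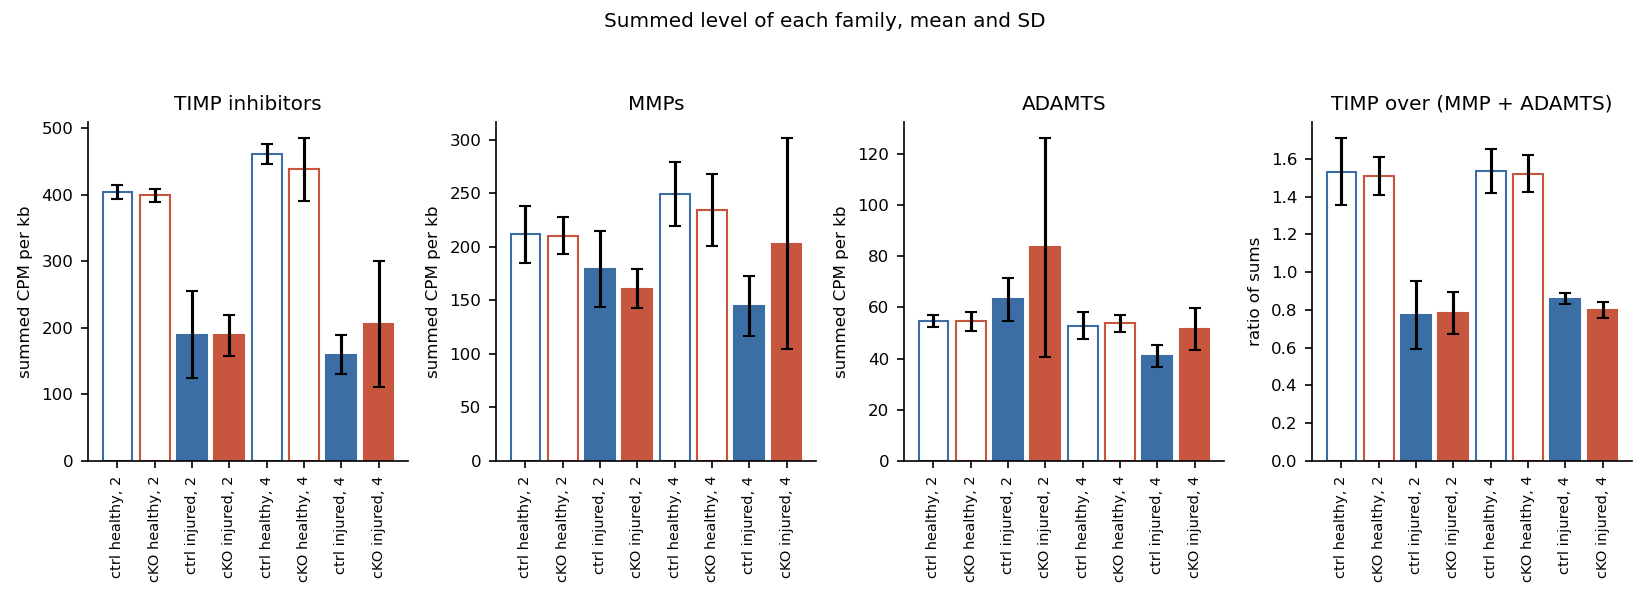
Mean and SD of the summed CPM per kb of the TIMPs, the MMPs and the ADAMTS, and of the ratio of TIMPs to the other families together, in the 8 groups of 4 to 6 libraries. Open bars are healthy and filled bars injured nerves, blue is Lepr-ctrl and red Lepr-cKO. The ratio is 1.51 to 1.53 in the healthy groups and 0.770 to 0.860 in the injured groups.

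Of the 22 MMPs, 9 lie side by side on chromosome 9, from Mmp13 (start 7272514) to Mmp7 (end 7699585, GRCm38), a cluster of secreted collagenases, stromelysins and elastases. Among the 10 members called higher in all 4 injury comparisons, Mmp3, Mmp8, Mmp12 and Mmp27 belong to it. Promoters of several genes of this cluster are known for AP-1 sites, so the 300 bases from 250 before to 50 after the start in the RefSeq promoter table (GRCm38.p6) were searched for the AP-1 motif TGANTCA, which reads alike on both strands. The table held 31 of the 45 members. The motif was present in 7 of these, Mmp3, Mmp7, Mmp10, Mmp12, Mmp13, Mmp1b and Mmp20, all in the cluster, and in 8.97% of all 27025 genes of the table (7.81% of its 32851 promoters). It lay 35 bases before the start in Mmp13, 44 in Mmp12, 46 in Mmp3, 63 in Mmp7 and Mmp10, 93 in Mmp1b and 95 in Mmp20. Mmp12 has more than 1 start in the table and only the one shown held the motif. The letters of the STAT motif TTCNNNGAA, searched because the leptin receptor signals through STAT3, were in 1 of the 31 members, Mmp23, and in 9.55% of all genes (8.30% of promoters), and the motifs do not overlap in any member. The 100 bases before the start of the 5 members of the cluster that passed the filter are shown because they differ in this motif, with the AP-1 match in capitals (plus strand). These letters are a description and say nothing of binding in these nerves.
Mmp3 (chr9:7445722-7445821): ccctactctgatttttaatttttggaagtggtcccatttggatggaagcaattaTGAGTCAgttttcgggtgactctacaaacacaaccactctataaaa
Mmp12 (chr9:7347274-7347373): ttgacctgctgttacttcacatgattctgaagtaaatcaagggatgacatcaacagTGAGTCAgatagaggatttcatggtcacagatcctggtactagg
Mmp13 (chr9:7272414-7272513): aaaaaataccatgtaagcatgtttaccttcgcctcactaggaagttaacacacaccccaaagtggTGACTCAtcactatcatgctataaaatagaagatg
Mmp8 (chr9:7558329-7558428): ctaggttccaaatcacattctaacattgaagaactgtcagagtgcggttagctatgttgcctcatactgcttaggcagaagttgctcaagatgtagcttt
Mmp27 (chr9:7571296-7571395): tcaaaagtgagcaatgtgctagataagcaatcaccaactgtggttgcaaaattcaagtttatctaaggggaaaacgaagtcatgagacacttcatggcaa

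Mmp12, the macrophage metalloelastase, had the largest mean log2 fold change of the members, 6.99 against 6.92 for Mmp27. Mmp12 stood at 0.0909, 0.121, 0.266, 0.341 and 0.712 CPM in healthy and 6.71, 12.3, 32.5, 51.6 and 224 CPM in injured Lepr-ctrl nerves at 2 wpc. Mmp12 in Lepr-cKO nerves was 0 to 0.385 (median 0.154, n = 6) CPM on the healthy and 10.5, 11.9, 13.6, 21.5 and 46.3 CPM on the injured side. Each injured library exceeded each healthy one, with the highest value in Lepr-ctrl library SLRKO2wpc144i, whose macrophage markers summed to 3368 CPM. Mmp12 in healthy Lepr-ctrl nerves at 4 wpc was at 0.0241, 0.0895, 0.375, 0.445 and 0.971 CPM, and in injured ones at 20.9, 35.2, 51.3 and 77.3 CPM. For Mmp12 in Lepr-cKO mice, the healthy nerves gave 0.0366, 0.0808, 0.156, 0.248 and 0.950 CPM and the injured nerves 12.9, 18.2, 21.8 and 31.5 CPM. Again no values overlapped. Its log2 fold changes were 7.86, 6.98, 6.92 and 6.21 (standard errors 0.82 to 0.88, adjusted p 1.72e-09 to 3.01e-07). Without library SLRKO2wpc144i the first was 6.51 (adjusted p = 2.41e-09), under the 7.895 of Mmp27 in that fit. The macrophage markers rose on the same side (5, 5, 8 and 7 of 8 called higher in the 4 comparisons), and their part in the Mmp12 values was not tested.

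Mmp27, a secreted MMP of little known function, was close to absent from healthy nerve. Mmp27 in healthy Lepr-ctrl nerves at 2 wpc was at 0, 0, 0, 0.0227 and 0.0310 CPM, and in injured ones at 1.74, 2.90, 3.56, 4.75 and 7.43 CPM. For Mmp27 in Lepr-cKO mice, the healthy nerves gave 0 to 0.120 (median 0.0278, n = 6) CPM and the injured nerves 1.53, 2.79, 3.45, 3.66 and 6.80 CPM. All injured libraries were above all healthy ones. At 4 wpc, Mmp27 was at 0, 0, 0, 0.0241 and 0.0741 CPM in healthy Lepr-ctrl nerves and at 2.23, 2.44, 4.65 and 4.79 CPM in injured ones. In Lepr-cKO nerves, Mmp27 was at 0, 0, 0.0248, 0.0432 and 0.0733 CPM when healthy and at 1.37, 2.22, 2.41 and 4.15 CPM when injured. The gap held at 4 wpc. Healthy Lepr-ctrl nerves gave 2 reads in all at 2 wpc and 3 at 4 wpc, so the fold is given as a ratio of CPM with its 95% counting interval. It was 326 (89.9 to 2701) at 2 wpc and 167 (56.4 to 818) at 4 wpc. The fitted log2 fold changes in Lepr-cKO nerves were 6.29 ± 0.54 and 6.28 ± 0.65 (adjusted p = 3.93e-12 and 7.77e-10).

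Mmp3, stromelysin-1, which cuts proteoglycans and laminin and activates other MMPs, was also near 0 in healthy nerve. At 2 wpc, Mmp3 was at 0, 0, 0, 0 and 0.0607 CPM in healthy Lepr-ctrl nerves and at 0.0733, 0.142, 0.267, 0.709 and 0.817 CPM in injured ones. In Lepr-cKO nerves, Mmp3 was at 0 to 0.645 (median 0.0127, n = 6) CPM when healthy and at 0.120, 0.403, 0.551, 2.96 and 4.01 CPM when injured. The sides did not overlap in Lepr-ctrl and overlapped in Lepr-cKO nerves. Mmp3 stood at 0, 0, 0, 0.0324 and 0.0448 CPM in healthy and 1.11, 3.74, 5.26 and 13.8 CPM in injured Lepr-ctrl nerves at 4 wpc. Mmp3 in Lepr-cKO nerves was 0, 0, 0.110, 0.720 and 1.12 CPM on the healthy and 0.602, 1.93, 2.46 and 4.63 CPM on the injured side. The pattern of overlap did not change at 4 wpc. With 2 reads over the healthy Lepr-ctrl nerves at each time, the ratio was 35.9 (9.49 to 303) at 2 wpc and 438 (120 to 3629) at 4 wpc. In Lepr-cKO nerves the log2 fold change was 3.09 ± 0.92 (adjusted p = 0.00372) at 2 wpc and 2.59 ± 0.97 (adjusted p = 0.0240) at 4 wpc. The call at 4 wpc was lost without any one of libraries KO-169Snc, KO-175Snc, KO-176Snc and KO-177Sni, and with DESeq2 (adjusted p = 0.0849).

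Mmp8, the collagenase named for neutrophils, rose from low levels. Mmp8 stood at 0.159, 0.177, 0.223, 0.273 and 0.279 CPM in healthy and 1.17, 1.39, 2.03, 2.14 and 2.29 CPM in injured Lepr-ctrl nerves at 2 wpc. Mmp8 in Lepr-cKO nerves was 0.0282 to 0.449 (median 0.172, n = 6) CPM on the healthy and 0.622, 1.24, 1.51, 2.13 and 2.59 CPM on the injured side. No injured value overlapped a healthy one. Mmp8 in healthy Lepr-ctrl nerves at 4 wpc was at 0.120, 0.208, 0.224, 0.291 and 0.408 CPM, and in injured ones at 0.871, 1.11, 1.59 and 2.35 CPM. For Mmp8 in Lepr-cKO mice, the healthy nerves gave 0.0744, 0.0864, 0.121, 0.147 and 0.195 CPM and the injured nerves 0.587, 0.609, 0.657 and 1.91 CPM. The same was true at 4 wpc, with library KO-169Sni highest among the injured Lepr-cKO nerves. Log2 fold changes were 3.003, 3.17, 2.55 and 2.93 (standard errors 0.43 to 0.52, adjusted p 8.62e-08 to 2.46e-05). The neutrophil markers that passed the filter rose in the same nerves (3 of 3, 2 of 3, 1 of 3 and 1 of 3 called higher), with their sum at most 1.21 CPM in healthy and 5.03 CPM in injured nerves, and their part was not tested.

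The other genes of the cluster were rarer still. Mmp13, collagenase-3, was at 0.113 ± 0.0618 CPM in healthy and 0.467 ± 0.569 CPM in injured Lepr-ctrl nerves at 2 wpc (SD, n = 5 each), and at 0.0555 ± 0.0631 (n = 6) and 0.319 ± 0.275 CPM (n = 5) in Lepr-cKO nerves. It was called higher at 2 wpc in both (log2 fold changes 1.97 ± 0.85 (adjusted p = 0.0426) and 2.43 ± 0.87 (adjusted p = 0.0140)) and not at 4 wpc (1.85 and 1.68, adjusted p = 0.136 and 0.142). Both calls were weak. The Lepr-ctrl value was 0.93 (adjusted p = 0.359) without injured library SLRKO2wpc144i, the highest at 1.47 CPM, and 1.22 (adjusted p = 0.223) with the animal as a block. Its call was also lost without any one of healthy libraries SLRKO2wpc123c, SLRKO2wpc130c, SLRKO2wpc131c and SLRKO2wpc147c (adjusted p 0.0503 to 0.102), with DESeq2 (adjusted p = 0.0551), with no expression filter (adjusted p = 0.0781) and with a term for sex (adjusted p = 0.0570). The Lepr-cKO call was lost without SLRKO2wpc125i (1.98, adjusted p = 0.0617). Mmp7, matrilysin, had 0 reads in healthy nerves at 2 wpc and 12 in injured Lepr-ctrl (7 of them in SLRKO2wpc131i) and 5 in injured Lepr-cKO nerves. With 3 reads as the floor over the healthy group and the injured reads taken as exact, that is 4.86-fold and 2.33-fold. Neither is a lower bound, since the few injured reads carry counting error too. Mmp10, stromelysin-2, had 5 reads in injured and 0 in healthy Lepr-ctrl nerves at 4 wpc, all 5 in library WT-171Sni.

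The membrane-type MMPs moved in different directions. Mmp16 and Mmp25 were called higher in all 4 comparisons, Mmp14 in 3, Mmp17 in the 2 at 2 wpc, and Mmp15 was called lower in 3. Mmp24, which is best known from the nervous system, stayed below the filter with at most 16 reads.

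Mmp14, which activates the MMP2 precursor at the cell surface, was at 38.3 ± 2.26 CPM in healthy and 124.6 ± 31.5 CPM in injured Lepr-ctrl nerves at 2 wpc, and at 51.6 ± 5.65 and 96.8 ± 25.2 CPM at 4 wpc (SD). In Lepr-cKO nerves it was at 42.2 ± 4.89 and 115 ± 25.8 CPM at 2 wpc and at 50.2 ± 2.14 and 125.9 ± 49.6 CPM at 4 wpc. No injured library overlapped a healthy one. The log2 fold changes were 1.70, 1.45, 0.91 and 1.33 (standard errors 0.17 to 0.19), and the value at 4 wpc in Lepr-ctrl nerves was short of the size limit (adjusted p = 1.02e-04), which it passed without WT-170Sni (1.04).

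Mmp15 was the most abundant protease per kb in healthy nerve. At 2 wpc, Mmp15 was at 527, 536, 542, 604 and 697 CPM in healthy Lepr-ctrl nerves and at 110.1, 248, 278, 323 and 337 CPM in injured ones. In Lepr-cKO nerves, Mmp15 was at 487 to 680.4 (median 622, n = 6) CPM when healthy and at 202, 230.1, 261, 295 and 296 CPM when injured. Injured values were all below healthy ones. Mmp15 stood at 633, 723, 792, 799 and 901 CPM in healthy and 152, 176.8, 206 and 241 CPM in injured Lepr-ctrl nerves at 4 wpc. Mmp15 in Lepr-cKO nerves was 609, 741, 776, 810.1 and 956 CPM on the healthy and 198, 364, 418 and 697 CPM on the injured side. At 4 wpc the sides stayed apart in Lepr-ctrl nerves, and in Lepr-cKO nerves library KO-169Sni (697 CPM) lay within the healthy range. The log2 fold changes were -1.17, -1.24, -1.99 and -0.89 (standard errors 0.22 to 0.25), called lower in all but Lepr-cKO at 4 wpc (adjusted p = 0.00214), where it was -1.25 and called without library KO-169Sni (adjusted p = 4.85e-05). Without Lepr-ctrl library SLRKO2wpc144i the first value was -0.97 (adjusted p = 1.16e-04). Myelin markers moved the same way, from 84230 to 117600 CPM in healthy to 9969 to 76670 CPM in injured nerves, with library SLRKO2wpc144i lowest and library KO-169Sni highest of the injured, and their part in the Mmp15 values was not tested.

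Mmp16 rose modestly. Mmp16 in healthy Lepr-ctrl nerves at 2 wpc was at 1.21, 1.25, 1.41, 1.49 and 1.77 CPM, and in injured ones at 3.28, 3.66, 3.70, 5.13 and 6.15 CPM. For Mmp16 in Lepr-cKO mice, the healthy nerves gave 1.49 to 2.196 (median 1.71, n = 6) CPM and the injured nerves 3.08, 4.75, 4.92, 5.04 and 5.22 CPM. The sides did not overlap at 2 wpc. At 4 wpc, Mmp16 was at 1.39, 1.54, 1.56, 1.88 and 2.36 CPM in healthy Lepr-ctrl nerves and at 1.85, 4.04, 4.53 and 6.02 CPM in injured ones. In Lepr-cKO nerves, Mmp16 was at 1.34, 1.38, 1.41, 1.95 and 2.198 CPM when healthy and at 2.64, 3.45, 3.85 and 5.66 CPM when injured. At 4 wpc injured Lepr-ctrl library WT-171Sni (1.85 CPM) fell within the healthy range, and Lepr-cKO nerves were separate. Log2 fold changes were 1.62, 1.39, 1.23 and 1.24 (standard errors 0.22 to 0.25, adjusted p 4.86e-07 to 9.75e-05). At 4 wpc the size sank to 0.97 without Lepr-ctrl library WT-173Sni and to 1.00, just short of the limit, without Lepr-cKO library KO-169Sni.

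Mmp25, the membrane-type MMP of leukocytes, rose from almost nothing. Mmp25 stood at 0, 0, 0.0303, 0.0620 and 0.0682 CPM in healthy and 0.191, 0.733, 1.96, 3.18 and 3.42 CPM in injured Lepr-ctrl nerves at 2 wpc. Mmp25 in Lepr-cKO nerves was 0.0282 to 0.129 (median 0.0414, n = 6) CPM on the healthy and 0.239, 0.424, 1.01, 1.83 and 4.33 CPM on the injured side. Injured and healthy values were apart at 2 wpc. Mmp25 in healthy Lepr-ctrl nerves at 4 wpc was at 0, 0.0324, 0.0371, 0.0417 and 0.0963 CPM, and in injured ones at 0, 0.563, 0.610 and 0.956 CPM. For Mmp25 in Lepr-cKO mice, the healthy nerves gave 0.0366, 0.0404, 0.0992, 0.117 and 0.1296 CPM and the injured nerves 0, 0.102, 0.547 and 1.07 CPM. At 4 wpc 1 injured library of each genotype had 0 reads, and the sides overlapped. Its log2 fold changes were 5.57, 4.51, 3.37 and 2.37 (standard errors 0.80 to 1.04, adjusted p 3.84e-06 to 0.0311). The last of these lost its call with the animal as a block (2.10, adjusted p = 0.0973) and without injured library KO-169Sni (1.35, adjusted p = 0.302) or KO-175Sni or healthy library KO-175Snc or KO-176Snc.

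Mmp17 rose at 2 wpc, and its response differed between the times in Lepr-ctrl mice. At 2 wpc, Mmp17 was at 47.0, 47.3, 50.5, 51.1 and 62.0 CPM in healthy Lepr-ctrl nerves and at 58.7, 86.6, 110, 138.2 and 247 CPM in injured ones. In Lepr-cKO nerves, Mmp17 was at 48.5 to 75.7 (median 61.9, n = 6) CPM when healthy and at 93.0, 105, 109, 122.8 and 234 CPM when injured. Lepr-cKO nerves were separate at 2 wpc, and in Lepr-ctrl nerves the lowest injured library, SLRKO2wpc144i (58.7 CPM), lay below the highest healthy one. Mmp17 stood at 56.7, 66.2, 70.4, 74.3 and 78.2 CPM in healthy and 27.1, 41.0, 42.7 and 60.5 CPM in injured Lepr-ctrl nerves at 4 wpc. Mmp17 in Lepr-cKO nerves was 61.0, 61.7, 64.3, 66.8 and 67.4 CPM on the healthy and 38.3, 43.7, 44.7 and 245 CPM on the injured side. Healthy and injured values overlapped at 4 wpc, where library KO-169Sni (245 CPM) stood far above the other injured Lepr-cKO nerves. Mmp17 rose at 2 wpc (log2 fold changes 1.31 ± 0.36 (adjusted p = 0.00167) and 1.10 ± 0.33 (adjusted p = 0.00446)) and was not called at 4 wpc (-0.69 ± 0.38 (adjusted p = 0.112) and 0.54 ± 0.37 (adjusted p = 0.219)). Without injured library SLRKO2wpc130i the first value was 0.94 and without injured library SLRKO2wpc135i the second was 0.80, both under the size limit. The last value turned to -0.605 (adjusted p = 0.0713) without KO-169Sni.

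The gelatinases, which cut denatured collagen and basement membrane, were called in no injury comparison of all libraries. Mmp2 was at 229.9 ± 64.7 CPM in healthy and 186 ± 78.1 CPM in injured Lepr-ctrl nerves at 2 wpc (log2 fold change -0.30 ± 0.26 (adjusted p = 0.316)). Its other injury comparisons gave -0.32, -0.13 and 0.53 (adjusted p = 0.259, 0.691 and 0.107). Mmp9 was at 3.49 ± 0.845 CPM in healthy and 1.70 ± 1.87 CPM in injured Lepr-ctrl nerves at 2 wpc and at 4.31 ± 1.53 and 4.21 ± 5.24 CPM at 4 wpc. Its log2 fold changes were -1.06, -0.77, -0.02 and -1.30 with standard errors of 0.66 to 0.75, and single libraries decided the first pair. In Lepr-ctrl nerves at 2 wpc, 4 injured libraries at 0.724 to 0.999 CPM lay below all healthy ones (2.34 to 4.43 CPM) and SLRKO2wpc144i, at 5.03 CPM, above them. Without that library Mmp9 was called lower (-2.00, adjusted p = 0.0180), and in Lepr-cKO nerves it was called lower without SLRKO2wpc138i (-1.68, adjusted p = 0.0356).

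Of the remaining MMPs, Mmp28 (epilysin) fell and Mmp19 rose in single or several comparisons. Mmp28 was at 39.1 ± 2.89 CPM in healthy and 10.2 ± 3.71 CPM in injured Lepr-ctrl nerves at 4 wpc, with log2 fold changes of -0.96, -1.22, -1.95 and -1.43 (standard errors 0.21 to 0.24), the last 3 called and the first also (-1.08) without SLRKO2wpc130i. All its injured libraries were below all healthy ones. Mmp19 was at 12.1 ± 2.26 and 27.2 ± 3.12 CPM in these groups and was called there only (1.17 ± 0.21 (adjusted p = 1.16e-05)), the other 3 log2 fold changes being 0.91, 0.84 and 0.97 with adjusted p of at most 1.98e-04. Leaving out 1 library took the first to 1.05 (SLRKO2wpc147i) or 1.07 (SLRKO2wpc123c) and the last to between 1.02 and 1.11 (KO-175Snc, KO-175Sni or KO-176Sni), past the size limit. Mmp11, stromelysin-3, was called lower in Lepr-ctrl nerves at 4 wpc alone, from 15.8 ± 2.43 to 6.95 ± 2.96 CPM (-1.17 ± 0.25 (adjusted p = 1.29e-04)). Exons of other genes on the opposite strand overlap 28.3% of the exon bases of Mmp19, 12% of Mmp28 and 5.6% of Mmp11.

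Mmp23, a membrane-anchored MMP with an unusual domain make-up, was called in no injury comparison but differed between times. Mmp23 in healthy Lepr-ctrl nerves at 2 wpc was at 10.8, 11.1, 11.3, 11.4 and 11.6 CPM, and in injured ones at 15.6, 16.3, 19.2, 21.5 and 23.6 CPM. For Mmp23 in Lepr-cKO mice, the healthy nerves gave 9.33 to 15.9 (median 13.8, n = 6) CPM and the injured nerves 14.7, 15.9, 16.3, 16.4 and 17.9 CPM. The injured Lepr-ctrl values were all above the healthy ones, and Lepr-cKO values overlapped. At 4 wpc, Mmp23 was at 10.2, 12.2, 12.9, 13.5 and 15.6 CPM in healthy Lepr-ctrl nerves and at 5.73, 7.65, 9.75 and 10.2 CPM in injured ones. In Lepr-cKO nerves, Mmp23 was at 13.7, 14.3, 14.5, 14.8 and 15.1 CPM when healthy and at 7.04, 9.95, 10.2 and 19.3 CPM when injured. At 4 wpc most injured libraries were below the healthy ones, with overlap at library WT-173Sni in Lepr-ctrl and library KO-169Sni in Lepr-cKO nerves. Log2 fold changes were 0.78, 0.29, -0.63 and -0.31 (standard errors 0.16 to 0.19, adjusted p 2.06e-04 to 0.152). Mmp21, known from left-right patterning of the embryo, gave at most 2 reads in a library.

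Among the 7 ADAMTS that cut versican and aggrecan, Adamts5 was called lower in all 4 injury comparisons. Called higher at 2 wpc were 1 of the 7 in Lepr-ctrl and 5 in Lepr-cKO nerves (19.8% and 20.9% of all genes). Of the 5, Adamts1 and Adamts4 were not called without library SLRKO2wpc135i. Adamts8 and Adamts9 stayed called without that library, which was the highest injured Lepr-cKO nerve of 2 wpc for them as well. These counts do not show that the genotypes differ. When their injury responses at 2 wpc were compared directly, 0 of the 38 members were called. Adamts5, the main aggrecanase, was the leading ADAMTS per kb in healthy nerve. Adamts5 stood at 178.8, 188, 209.9, 239.8 and 243 CPM in healthy and 38.6, 53.4, 57.7, 61.4 and 63.7 CPM in injured Lepr-ctrl nerves at 2 wpc. Adamts5 in Lepr-cKO nerves was 139 to 228 (median 193, n = 6) CPM on the healthy and 52.4, 55.9, 56.8, 75.6 and 75.8 CPM on the injured side. The sides did not overlap. Adamts5 in healthy Lepr-ctrl nerves at 4 wpc was at 168.1, 176.7, 186, 206 and 255 CPM, and in injured ones at 47.8, 48.3, 53.5 and 54.9 CPM. For Adamts5 in Lepr-cKO mice, the healthy nerves gave 205, 207, 218, 222 and 233 CPM and the injured nerves 51.4, 73.3, 74.1 and 106 CPM. They were apart at 4 wpc as well. Its log2 fold changes were -1.95, -1.61, -1.96 and -1.51, with the smallest standard errors of the members described by library (0.15 to 0.17, adjusted p 1.02e-12 to 3.47e-09).

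Adamts20, a versican-cutting member known from pigment cell migration, fell at 4 wpc. At 2 wpc, Adamts20 was at 76.5, 83.8, 84.0, 87.6 and 88.7 CPM in healthy Lepr-ctrl nerves and at 43.3, 73.9, 81.6, 81.6 and 105 CPM in injured ones. In Lepr-cKO nerves, Adamts20 was at 77.9 to 86.7 (median 83.5, n = 6) CPM when healthy and at 47.6, 49.0, 59.1, 76.4 and 86.8 CPM when injured. At 2 wpc the sides overlapped. Adamts20 stood at 59.0, 83.9, 85.0, 108 and 108 CPM in healthy and 16.5, 20.4, 27.8 and 32.3 CPM in injured Lepr-ctrl nerves at 4 wpc. Adamts20 in Lepr-cKO nerves was 66.2, 83.9, 93.8, 109.5 and 111 CPM on the healthy and 25.6, 44.2, 51.2 and 61.6 CPM on the injured side. All injured nerves of 4 wpc were below the healthy ones of their genotype. The log2 fold changes were -0.12 and -0.38 at 2 wpc (adjusted p = 0.610 and 0.0928), and -1.87 ± 0.23 (adjusted p = 2.02e-08) in Lepr-ctrl and -1.02 ± 0.23 (adjusted p = 2.45e-04) in Lepr-cKO nerves at 4 wpc. The last value, close to the size limit, ran from -0.84 to -0.96 without injured library KO-177Sni or healthy library KO-175Snc or KO-176Snc.

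Adamts1, which cuts versican and aggrecan and limits vessel growth, rested on 1 library. Adamts1 stood at 26.4, 26.7, 27.8, 33.4 and 39.4 CPM in healthy and 33.8, 55.0, 57.5, 58.0 and 64.1 CPM in injured Lepr-ctrl nerves at 2 wpc. Adamts1 in Lepr-cKO nerves was 23.6 to 52.4 (median 37.3, n = 6) CPM on the healthy and 46.3, 46.6, 72.6, 100 and 539 CPM on the injured side. In Lepr-cKO library SLRKO2wpc135i it stood at 539 CPM, more than 5 times the next injured library. Adamts1 in healthy Lepr-ctrl nerves at 4 wpc was at 17.0, 21.8, 22.5, 26.9 and 27.1 CPM, and in injured ones at 11.9, 17.1, 17.4 and 20.1 CPM. For Adamts1 in Lepr-cKO mice, the healthy nerves gave 19.0, 19.1, 20.1, 20.7 and 23.1 CPM and the injured nerves 12.7, 15.4, 17.8 and 32.5 CPM. The values overlapped at 4 wpc. It was called higher in Lepr-cKO nerves at 2 wpc (2.07 ± 0.39 (adjusted p = 2.10e-05)) and in no other injury comparison (0.80, -0.47 and -0.05, adjusted p = 0.0793, 0.360 and 0.927). Without library SLRKO2wpc135i its log2 fold change was 0.79 (adjusted p = 0.00260), under the size limit. That library also had 29.7% mitochondrial reads and the highest endothelial markers (1717 CPM, at most 1053 CPM elsewhere). The part of either was not tested.

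Adamts4, another aggrecanase, behaved alike. At 2 wpc, Adamts4 was at 2.63, 2.91, 3.77, 4.49 and 5.58 CPM in healthy Lepr-ctrl nerves and at 3.66, 4.58, 6.14, 6.27 and 8.58 CPM in injured ones. In Lepr-cKO nerves, Adamts4 was at 3.31 to 4.87 (median 3.83, n = 6) CPM when healthy and at 3.98, 4.41, 6.42, 6.51 and 23.9 CPM when injured. The sides overlapped in both genotypes, and library SLRKO2wpc135i was again the highest. Adamts4 stood at 6.30, 9.54, 9.997, 10.3 and 12.7 CPM in healthy and 4.68, 4.79, 5.35 and 6.29 CPM in injured Lepr-ctrl nerves at 4 wpc. Adamts4 in Lepr-cKO nerves was 5.40, 5.66, 10.8, 10.9 and 13.3 CPM on the healthy and 5.84, 5.87, 6.73 and 6.76 CPM on the injured side. At 4 wpc the injured Lepr-ctrl values lay below the healthy ones, with overlap in Lepr-cKO nerves. Adamts4 was called in Lepr-cKO nerves at 2 wpc only (1.18 ± 0.32 (adjusted p = 0.00144)), and there neither without library SLRKO2wpc135i (0.42, adjusted p = 0.119) nor with the animal as a block (0.79, adjusted p = 0.0345). The other log2 fold changes were 0.59, -0.89 and -0.55 (adjusted p = 0.119, 0.0311 and 0.189), the second of which was -1.02 and called without WT-168Snc (adjusted p = 0.01795).

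The other 3 proteoglycanases rose in at least 1 comparison. Adamts15 went from 11.5 ± 3.23 to 36.0 ± 15.8 CPM in Lepr-ctrl nerves at 2 wpc and was called in all but Lepr-ctrl at 4 wpc (log2 fold changes 1.64, 1.21, 0.70 and 1.57, standard errors 0.37 to 0.42), and there too (1.32, adjusted p = 0.00394) without WT-170Snc. Adamts9 and Adamts8 were called in Lepr-cKO nerves at 2 wpc only. Adamts9 was at 19.2 ± 5.16 CPM (n = 6) and 56.9 ± 36.1 CPM (n = 5) there (1.57 ± 0.29 (adjusted p = 2.00e-05)), and Adamts8 at 0.327 ± 0.153 and 2.45 ± 3.22 CPM (2.88 ± 0.53 (adjusted p = 1.56e-05)). Without library SLRKO2wpc135i, at 8.17 CPM against 0.514 to 1.55 CPM in the other injured ones, the Adamts8 value fell to 1.63 (adjusted p = 0.00140), still called. That library was also highest for Adamts9, at 114.9 CPM against 27.2 to 68.1 CPM. Without it the Adamts9 value was 1.15 (adjusted p = 4.31e-04), just over the size limit. In Lepr-ctrl nerves at 2 wpc, Adamts8 was called without SLRKO2wpc147i (1.31, adjusted p = 0.0422) and Adamts9 without SLRKO2wpc123c (1.05, adjusted p = 0.00424).

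Of the procollagen N-proteinases, which trim fibrillar collagen precursors, Adamts14 rose throughout. Adamts14 in healthy Lepr-ctrl nerves at 2 wpc was at 5.09, 6.58, 10.4, 15.0 and 18.4 CPM, and in injured ones at 28.4, 28.5, 33.1, 46.4 and 47.7 CPM. For Adamts14 in Lepr-cKO mice, the healthy nerves gave 5.45 to 14.9 (median 10.4, n = 6) CPM and the injured nerves 24.8, 28.8, 32.0, 37.0 and 38.8 CPM. Every injured library exceeded every healthy one. At 4 wpc, Adamts14 was at 5.64, 6.11, 8.19, 9.13 and 10 CPM in healthy Lepr-ctrl nerves and at 19.6, 21.9, 28.9 and 30.7 CPM in injured ones. In Lepr-cKO nerves, Adamts14 was at 4.68, 6.14, 8.75, 11.1 and 12.03 CPM when healthy and at 18.5, 23.7, 34.9 and 49.9 CPM when injured. The separation was the same at 4 wpc. Log2 fold changes were 1.73, 1.68, 1.69 and 1.89 (standard errors 0.30 to 0.33, adjusted p 7.37e-06 to 3.97e-05). Adamts2 was not called, with 29.7 ± 4.65 CPM in healthy and 46.8 ± 20.2 CPM in injured Lepr-ctrl nerves at 2 wpc and log2 fold changes of 0.66, 0.71, 0.42 and 0.93, the last of which passed the size limit without KO-175Sni (1.04) or KO-177Sni (1.10). Adamts3 was at 0.0944 ± 0.0637 and 0.363 ± 0.0864 CPM in Lepr-cKO nerves at 2 wpc and was called there (1.87 ± 0.68 (adjusted p = 0.01597)), though not with the animal as a block (1.75, adjusted p = 0.0663). In Lepr-ctrl nerves its value at 2 wpc was 1.66 ± 0.76 (adjusted p = 0.0561), and called (1.79 to 2.12) without any one of SLRKO2wpc130c, SLRKO2wpc147c, SLRKO2wpc123i, SLRKO2wpc131i and SLRKO2wpc144i.

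Adamts10, which binds fibrillin microfibrils, rose in all 4 comparisons, and its relative Adamts6 in none. At 2 wpc, Adamts10 was at 26.1, 26.2, 28.5, 36.4 and 41.1 CPM in healthy Lepr-ctrl nerves and at 66.2, 83.5, 103, 109 and 122 CPM in injured ones. In Lepr-cKO nerves, Adamts10 was at 29.3 to 42.0 (median 32.9, n = 6) CPM when healthy and at 65.8, 72.4, 88.7, 122 and 124.7 CPM when injured. No values of the sides overlapped. Adamts10 stood at 19.2, 25.9, 26.8, 27.1 and 28.8 CPM in healthy and 74.5, 75.6, 107 and 123.2 CPM in injured Lepr-ctrl nerves at 4 wpc. Adamts10 in Lepr-cKO nerves was 22.3, 22.5, 24.7, 36.9 and 41.5 CPM on the healthy and 44.9, 91.8, 105 and 107 CPM on the injured side. Injured library KO-169Sni (44.9 CPM) was the lowest of the injured nerves and still above the healthy ones. Its log2 fold changes were 1.61, 1.47, 1.89 and 1.56 (standard errors 0.21 to 0.23, adjusted p 1.46e-08 to 8.53e-07). Those of Adamts6 were -0.24, -0.15, -0.51 and -0.03 (standard errors 0.21 to 0.24), at 12.6 ± 1.29 CPM in healthy and 10.7 ± 3.79 CPM in injured Lepr-ctrl nerves at 2 wpc.

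The pair that cuts cartilage oligomeric matrix protein was called once. Adamts7 was called lower in Lepr-ctrl nerves at 4 wpc, from 30.4 ± 5.63 to 10.5 ± 3.23 CPM (-1.52 ± 0.25 (adjusted p = 3.72e-06)), and its other log2 fold changes were -0.62, -0.86 and -0.91, the last being -1.11 and called without KO-176Sni. Adamts12 was at 5.39 ± 1.77 CPM in healthy and 7.71 ± 3.79 CPM in injured Lepr-ctrl nerves at 2 wpc, with log2 fold changes of 0.52, 0.75, -0.41 and 0.30. Adamts13, which cuts von Willebrand factor, was below the filter.

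The members with less well known substrates held some of the largest rises. Adamts18 was near 0 in healthy nerve. Adamts18 stood at 0, 0.0445, 0.0455, 0.0590 and 0.0620 CPM in healthy and 0.229, 1.18, 1.94, 2.45 and 5.08 CPM in injured Lepr-ctrl nerves at 2 wpc. Adamts18 in Lepr-cKO nerves was 0 to 0.232 (median 0.0891, n = 6) CPM on the healthy and 0.576, 1.39, 1.80, 2.47 and 3.49 CPM on the injured side. Injured values were above healthy ones in both genotypes. Adamts18 in healthy Lepr-ctrl nerves at 4 wpc was at 0, 0, 0.0241, 0.0417 and 0.0448 CPM, and in injured ones at 0.334, 1.47, 1.92 and 3.38 CPM. For Adamts18 in Lepr-cKO mice, the healthy nerves gave 0.0366, 0.0390, 0.0404, 0.0432 and 0.199 CPM and the injured nerves 0.164, 0.257, 0.761 and 1.57 CPM. At 4 wpc only the Lepr-cKO values overlapped. The log2 fold changes were 5.54 ± 0.81, 4.20 ± 0.66 and 2.98 ± 0.81 in Lepr-ctrl and Lepr-cKO at 2 wpc and Lepr-cKO at 4 wpc (adjusted p = 3.44e-07, 1.32e-06 and 0.00232). In Lepr-ctrl at 4 wpc, where healthy nerves gave 3 reads, the ratio was 75.8 (95% counting interval 25.1 to 375).

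Adamts16 rose at 2 wpc alone. At 2 wpc, Adamts16 was at 0, 0, 0, 0.0295 and 0.0310 CPM in healthy Lepr-ctrl nerves and at 0.381, 0.475, 0.483, 0.686 and 0.989 CPM in injured ones. In Lepr-cKO nerves, Adamts16 was at 0 to 0.101 (median 0.0399, n = 6) CPM when healthy and at 0.0399, 0.441, 0.509, 0.546 and 1.41 CPM when injured. The sides were apart in Lepr-ctrl nerves and overlapped in Lepr-cKO nerves, at library SLRKO2wpc135i. Adamts16 stood at 0, 0.0417, 0.120, 0.148 and 0.179 CPM in healthy and 0, 0, 0.0557 and 0.191 CPM in injured Lepr-ctrl nerves at 4 wpc. Adamts16 in Lepr-cKO nerves was 0.0248, 0.0366, 0.0432, 0.0808 and 0.156 CPM on the healthy and 0, 0.109, 0.184 and 0.305 CPM on the injured side. At 4 wpc there was overlap in both genotypes. Over 2 reads in healthy Lepr-ctrl nerves at 2 wpc the ratio was 50.4 (13.5 to 423), and in Lepr-cKO nerves the log2 fold change was 3.57 ± 0.65 (adjusted p = 1.40e-05). At 4 wpc the values were -0.44 ± 1.01 (adjusted p = 0.719) and 1.21 ± 0.84 (adjusted p = 0.227).

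Adamts17 rose in 3 of the 4 comparisons. Adamts17 in healthy Lepr-ctrl nerves at 2 wpc was at 4.85, 5.15, 5.84, 6.79 and 8.50 CPM, and in injured ones at 11.2, 23.6, 24.3, 29.3 and 31.3 CPM. For Adamts17 in Lepr-cKO mice, the healthy nerves gave 4.77 to 9.15 (median 6.19, n = 6) CPM and the injured nerves 13.2, 20.02, 22.5, 24.6 and 25.9 CPM. Injured nerves were above healthy ones at 2 wpc. At 4 wpc, Adamts17 was at 5.82, 7.30, 7.78, 9.25 and 11.6 CPM in healthy Lepr-ctrl nerves and at 5.63, 9.24, 10.01 and 14.2 CPM in injured ones. In Lepr-cKO nerves, Adamts17 was at 4.57, 5.86, 6.54, 7.20 and 8.68 CPM when healthy and at 13.6, 15.8, 16.7 and 65.8 CPM when injured. At 4 wpc the Lepr-ctrl values overlapped and the Lepr-cKO values did not, with library KO-169Sni (65.8 CPM) at about 4 times the next. Log2 fold changes were 1.95, 1.74, 0.24 and 2.10 (standard errors 0.30 to 0.34). The third of these missed the threshold (adjusted p = 0.561), and the last sank to 1.23 (adjusted p = 2.52e-04) without KO-169Sni. Adamts19 was called in none, at 0.973 ± 0.240 CPM in healthy and 0.959 ± 0.843 CPM in injured Lepr-ctrl nerves at 2 wpc (log2 fold changes 0.01, 0.34, -1.49 and -0.76), though the third was called without WT-168Snc (-1.66, adjusted p = 0.0488) or WT-173Sni (-2.44, adjusted p = 0.0204).

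Deletion of Lepr in Schwann cells, the comparison the study was built on, left few calls among the members. In injured nerve at 2 wpc, edgeR called 0 of 38 (0.569% of all genes), with 6 at an unadjusted p under 0.05. The genes called included all 8 skeletal muscle markers (median log2 fold change 9.40), which were high in library SLRKO2wpc126i. DESeq2 called 26 genes, with 1 member among them, Adamts1, which edgeR also called (1.78 to 1.83) without SLRKO2wpc125i, SLRKO2wpc128i or SLRKO2wpc138i. Without SLRKO2wpc135i, where Adamts1 was highest, its edgeR value was 0.31 (adjusted p = 0.9005). In healthy nerve edgeR called 0 at 2 wpc and 0 at 4 wpc (0.00542% of all genes each), with 1 and 3 members at an unadjusted p under 0.05, and DESeq2 called 0 at either time. In injured nerve at 4 wpc, Mmp15 (1.11 ± 0.25 (adjusted p = 0.0274)) and Adamts17 (1.52 ± 0.36 (adjusted p = 0.0343)) were called higher in Lepr-cKO and 0 members lower, against 0.363% and 0.0868% of all genes. The members' median log2 fold change in that comparison was 0.27, that of all genes 0.03. The members' median includes library KO-169Sni, without which both calls were lost. A median without that library is not given, so no shift of the family is read from it.

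Both calls at 4 wpc depended on single libraries. The Mmp15 values were 152 to 241 CPM in Lepr-ctrl and 198, 364, 418 and 697 CPM in Lepr-cKO nerves, so 1 Lepr-cKO library lay within the Lepr-ctrl range. Those of Adamts17 were 5.63 to 14.2 CPM in Lepr-ctrl and 13.6, 15.8, 16.7 and 65.8 CPM in Lepr-cKO nerves, again with overlap at the lowest Lepr-cKO library. Without library KO-169Sni, the highest in both, the log2 fold changes were 0.75 (adjusted p = 0.189) and 0.65 (adjusted p = 0.328), and no member was called. No member was called either without Lepr-ctrl library WT-170Sni, WT-171Sni or WT-178Sni, and 4 were called without Lepr-ctrl library WT-173Sni (adding Adamts20 and Mmp11) or Lepr-cKO library KO-177Sni (adding Adamts20 and Mmp17). Only Adamts17 was called without Lepr-cKO library KO-176Sni. A fit of these 8 libraries alone gave an adjusted p of 0.315 for both. Myelin markers summed to 30690 to 76670 CPM in the Lepr-cKO and 25020 to 33570 CPM in the Lepr-ctrl nerves of this comparison, macrophage markers to 1302 to 2208 and 1905 to 4190 CPM, and their part was not tested. Adamts20 was the only other member with an adjusted p under 0.05, below the size limit (0.91 ± 0.24 (adjusted p = 0.0469)).

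The test of whether the genotypes responded differently to injury called 0 members at 2 wpc and 0 at 4 wpc with edgeR (0% of all genes each), with 3 and 7 at an unadjusted p under 0.05, and DESeq2 called 0 at both times. For Mmp15 the difference at 4 wpc was 1.10 ± 0.34 (adjusted p = 0.385) and for Adamts17 1.86 ± 0.48 (adjusted p = 0.385). Without injured Lepr-cKO library KO-177Sni both were called. The TIMPs showed differences at 4 wpc of 0.16 ± 0.42 for Timp1, 0.43 ± 0.31 for Timp2 and 0.72 ± 0.50 for Timp3 (adjusted p = 0.918, 0.613 and 0.597), which neither shows a difference between the genotypes nor that they responded alike.

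Over time, the response of several proteases was lower at 4 than at 2 wpc. The response to injury at 4 wpc minus that at 2 wpc, each taken against the healthy nerves of its own cohort, was called lower for 5 members in Lepr-ctrl mice and higher for 0, against 2.81% and 1.61% of all genes. These were Adamts20 (-1.74 ± 0.31 (adjusted p = 6.03e-04)), Mmp23 (-1.40 ± 0.26 (adjusted p = 7.98e-04)), Adamts16 (-5.64 ± 1.33 (adjusted p = 0.00641)), Mmp17 (-2.00 ± 0.52 (adjusted p = 0.0129)) and Adamts17 (-1.71 ± 0.47 (adjusted p = 0.0181)). The Adamts16 value rests on few reads and depends on the prior count of the fit. With the animal as a block 8 were called, adding Adamts4, Adamts7 and Mmp28, and without injured library SLRKO2wpc144i of 2 wpc 9 were called. Beyond these 3, Mmp11 (without WT-173Sni) and Mmp15 (without SLRKO2wpc144i) were called in single fits with 1 library left out. The median over the 38 members was -0.77, and over all genes 0.01.

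In Lepr-cKO mice, 2 members were called lower and 0 higher, against 0.466% and 0.949% of all genes. Adamts1 (-2.12 ± 0.58 (adjusted p = 0.0453)) and Adamts4 (-1.73 ± 0.48 (adjusted p = 0.0447)) were the ones. With the animal as a block neither was called (adjusted p = 0.320 and 0.253), and without library SLRKO2wpc135i their log2 differences were -0.84 and -0.97 (adjusted p = 0.225 and 0.161). The adjusted p of Adamts1 passed 0.05 in 9 and that of Adamts4 in 8 of 14 fits with 1 library left out. None of the 5 members called in Lepr-ctrl mice was called in Lepr-cKO mice, where they gave -0.65, -0.60, -2.37, -0.57 and 0.36 for Adamts20, Mmp23, Adamts16, Mmp17 and Adamts17. Without library KO-169Sni the values of Mmp23, Mmp17 and Adamts17 in Lepr-cKO mice were -0.98, -1.73 and -0.53 (adjusted p = 0.00803, 0.00756 and 0.491), so that Mmp17 was called and Adamts17 turned to the sign it had in Lepr-ctrl mice. Adamts8 (without SLRKO2wpc138i) and Adamts9 (without SLRKO2wpc126i) were each called lower in 1 such fit. The difference between the genotypes in this change over time was not tested.

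**Figure D4:**
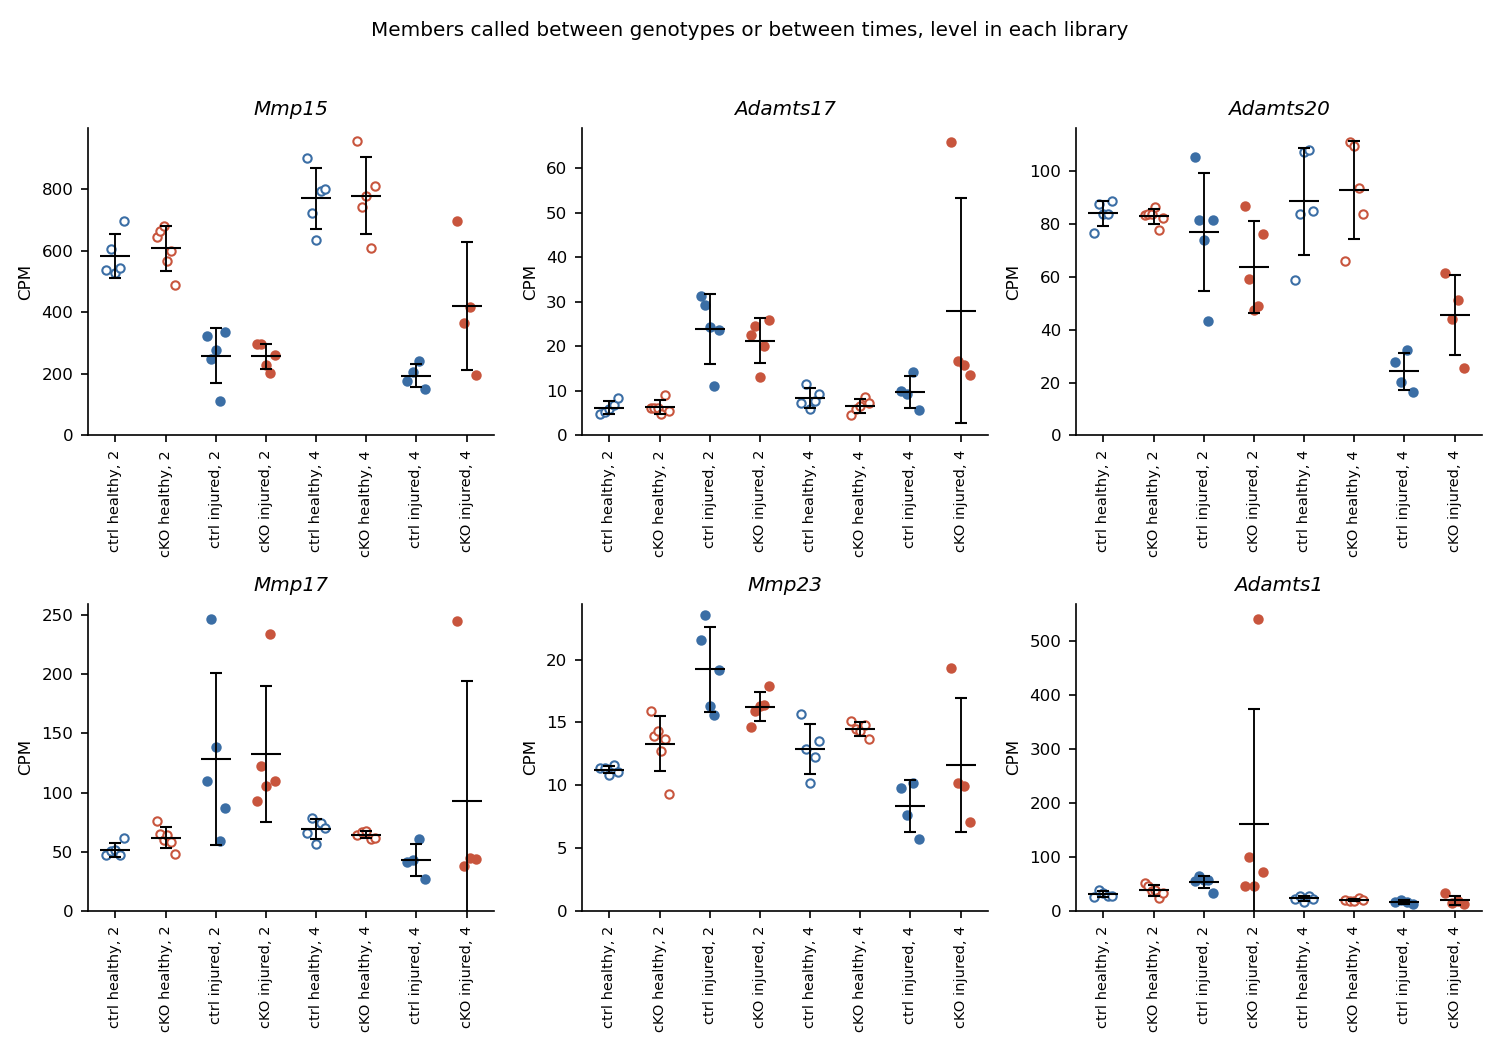
CPM of 6 members called between genotypes or between times in each of the 39 libraries, with mean and SD (bars cut at 0 for Mmp17 and Adamts1), by genotype, nerve and weeks post-crush. Open points are healthy and filled points injured nerves, blue is Lepr-ctrl and red Lepr-cKO. Injured Lepr-cKO library KO-169Sni stands out at 4 wpc for Adamts17 (65.8 CPM) and Mmp17 (245 CPM), and library SLRKO2wpc135i at 2 wpc for Adamts1 (539 CPM), while injured Adamts20 of 4 wpc (16.5 to 61.6 CPM) lies below the healthy values of its genotype.

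The genes that activate, clear or feed these enzymes changed in both directions. Of 34 tested partner genes (the plasminogen system, proprotein convertases, clearance receptors and thrombospondins, ADAMTS-like proteins, ADAM sheddases and proteoglycan substrates), 6 rose and 10 fell in each genotype at 2 wpc (all genes: 19.8% and 14.3% in Lepr-ctrl nerves and 20.9% and 13.4% in Lepr-cKO nerves). At 4 wpc 6 rose and 13 fell in Lepr-ctrl (20.1% and 15.9% of all genes) and 7 rose and 9 fell in Lepr-cKO nerves (16.8% and 10.8%). Of the 5 plasminogen system genes 2, 2, 3 and 3 rose in the 4 comparisons and 0 fell. Of the 6 proteoglycan substrates 3, 3, 4 and 3 fell, and of the 6 ADAMTS-like genes 3, 3, 3 and 2, while 0 of either rose. Largest among those called in all 4 comparisons was Pcsk6, a convertase that activates MMP and ADAMTS precursors, with a mean log2 fold change of -4.31. Adam8, a sheddase of leukocytes, had a mean of 3.20, Plaur, the urokinase receptor, 2.03, and Thbs2, a thrombospondin that helps to clear MMP2, 2.49. The proteoglycan Spock3 had a mean of -2.94, the ADAMTS substrate Vcan (versican) -2.12, the broad protease inhibitor A2m -2.01 and the ADAMTS-like Adamtsl1 -1.93. With edgeR 0 partners were called in any of the 4 genotype comparisons or in the genotype difference at 2 or 4 wpc, where 0 to 10 were at an unadjusted p under 0.05.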

How the data were processed

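Endoneurial RNA of the distal sciatic nerve was measured by RNA-seq in 39 mouse libraries of 8 groups, set from the sample titles (genotype, nerve, time). Per the labels, reads were processed with bcl2fastq 2.20.0.422, STAR 2.5 and featureCounts 1.5.0-p1 on GRCm38, and the study's methods give single 50-base reads. The authors deposited raw read counts per gene for 55573 genes in each library, neither normalized nor filtered. Strand use and the treatment of multiply aligned reads are not given in the sources used here, so counts of overlapping or duplicated genes are uncertain.

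Counts were tested with edgeR 4.0.16 in R 4.3.3 (TMM, filterByExpr over groups at its defaults of 10 reads and a total of 15, quasi-likelihood test, 1 fit of all 8 groups, Benjamini-Hochberg over 18442 genes). Genes were called below an adjusted p of 0.05 if their log2 fold change exceeded 1 in size. The standard error is the absolute log2 fold change divided by the square root of F. DESeq2 1.42.0 was an alternative, and the others were DESeq2 size factors, other filters, a term for sex, the animal as a block, fits of the compared groups only, and leaving out each library or the 3 that stood apart. The test was checked on simulated data. Coordinates are those of GRCm38, and promoters come from RefSeq (GRCm38.p6). The search of protein motifs was not run.

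Members and gene lists were chosen with earlier results of these data known. Values by library are given for the TIMPs and for members called in all 4 injury comparisons or in any comparison of genotypes or times. Other members are given by group means, and those under the filter by their highest count. Of the partner genes, the 8 with the largest mean change among those called in all 4 injury comparisons are named.

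The same animal number marks the nerves of 1 mouse in the labels. Deviations from the group means over 5000 genes correlated within the 17 pairs at -0.117 to 0.567, above 0.1 in 14. Depth was 10905806 to 45016322 counted reads a library. Intervals cover counting error only, and floors that of the healthy group alone.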

Additional observations from a re-analysis of the deposited data

Results flagged for a closer look

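In groups of 4 to 6 libraries, 304 member-and-group sets were screened for 1 library with an unusually wide gap to the rest, a screen that chance alone sets off in about 1 in 20 groups. It picked out 17 values, all in CPM. The injured Lepr-cKO library KO-169Sni at 4 wpc, with 2.95% mitochondrial reads and the highest myelin markers of the injured nerves, gave 4 of them, the highest values of Adamts17 (65.8), Mmp17 (245), Mmp2 (378) and Mmp8 (1.91).

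The injured Lepr-ctrl library SLRKO2wpc144i at 2 wpc, with 33.0% mitochondrial reads, was lowest for Adamts17 (11.2) and Mmp15 (110.1) and highest for Mmp9 (5.03). At the same time library SLRKO2wpc147i was lowest for Adamts1 (33.8) among injured Lepr-ctrl nerves, library SLRKO2wpc135i highest for Adamts4 (23.9) and library SLRKO2wpc126i, the one with skeletal muscle markers, lowest for Mmp16 (3.08) among injured Lepr-cKO nerves.

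Among healthy Lepr-ctrl nerves, library SLRKO2wpc120c at 2 wpc was lowest for Adamts18 (0) and highest for Mmp3 (0.0607), both of which are levels of few reads. At 4 wpc library WT-168Snc was highest for Timp2 (1356) and lowest for Timp3 (1068), and library WT-171Snc was lowest for Adamts10 (19.2). Among healthy Lepr-cKO nerves at 4 wpc, library KO-177Snc was lowest for Timp3 (717) and library KO-179Snc highest for Adamts18 (0.199).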

How the results depend on the processing

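The count of members called with injury moved by over 1.5 times under 1 alternative, a minimum of 10 counts in every library, which tests fewer members and gave 12 and 16 at 2 wpc in Lepr-ctrl and Lepr-cKO and 11 at 4 wpc in Lepr-cKO nerves. Leaving out 1 library gave 19 to 22, 24 to 27, 19 to 21 and 14 to 19 in the 4 injury comparisons. Between genotypes in injured nerve at 2 wpc, 1 member was called with no expression filter, 1 with DESeq2, and 0 to 1 with 1 library left out. At 4 wpc, 0 were called in the compared groups alone and 0 without the 3 libraries that stood apart, an alternative chosen after seeing the data, and 0 to 4 with 1 library left out. In healthy nerve these fits gave 0 at both times, and the comparison of responses between genotypes 0 at 2 wpc and 0 to 2 at 4 wpc. Over time in Lepr-ctrl mice, 8 were called with the animal as a block, 9 without the 3 libraries, and 5 to 9 with 1 library left out. In Lepr-cKO mice 1 was called with no expression filter, 0 with a term for sex, 0 with the block, 0 in the compared groups alone, and 0 to 3 with 1 library left out. The cause of these moves was not tested beyond the libraries named in the report.

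Of the log2 fold changes of called members, 0 changed sign. They fell short of the threshold in 51 of 793 fits without 1 library and in 25 of 774 fits under the other alternatives. The block changed no call beyond those given with the results. At 10905806 to 45016322 reads, members under about 1 CPM rest on few reads, so that changes of Mmp3, Mmp13, Mmp25, Adamts3 and Adamts16 are the least certain. With 4 to 6 libraries a group, small genotype differences were not detectable.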
